A study of Arabidopsis thaliana with 9 samples.

Results

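Roots of the Arabidopsis thaliana line titled erf13-3 were compared with wild-type (WT) roots by RNA-seq. The comparison used the 3 erf13-3 and the 3 WT libraries of a series of 9, whose other 3 libraries came from 35S:ERF13:MYC, a line that expresses MYC-tagged ERF13 from the 35S promoter. All seedlings were 9 days old and had grown on 1/2 MS medium, and RNA was taken from the roots. The genotype label calls erf13-3 an SRDX line of ERF13 and the authors' table names it E13SRDX, while the series text writes erf3-3. The same table names the wild type COL. The promoter of the SRDX construct, the number of independent lines and the number of plants per library are not stated in the labels or files. Of 24140 genes with reads in any library, 19714 passed a filter on low counts and were tested.

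ERF13 is an ethylene response factor, a member of the plant AP2/ERF family of DNA-binding proteins, many of which bind the GCC box in promoters. SRDX is a short repression domain, and a transcription factor fused to it acts as a repressor of the genes it binds. The study of ERF13 concerns the elongation of very-long-chain fatty acids, in which a 3-ketoacyl-CoA synthase (KCS) adds carbon units to an acyl chain that then enters waxes, suberin, sphingolipids and storage lipids. In roots some of these lipids coat the endodermis and the surface through which lateral roots emerge.

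Library totals lay between 12147128 and 12324144 expected counts, so depth was nearly equal. Genotype separated the 6 libraries on the principal component that held 68.9% of the variance of log2 CPM, and the next, with 15.9%, set WT replicate 3 and erf13-3 replicate 3 apart from the other libraries of their groups. Root markers were present in every library, among them PYK10, at 7594 to 12940 FPKM in these 6 libraries, CASP1 at 150.5 to 277 and SCR at 17.8 to 35.9. Of 27 tested green tissue genes, 21 were higher in erf13-3 and 0 lower, and their summed level was 672 to 757 FPKM in WT, 1300 to 1521 in erf13-3 and 318 to 482 in 35S:ERF13:MYC. The part of shoot material, or of shoot-type expression in the root, in the results below was not tested. No source says that the libraries of a group came from separate plants, so a p-value here sets a difference against the spread among libraries, part or all of which may be technical.

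ERF13 (AT2G44840, chromosome 2, 18495215 to 18496327 on the plus strand in TAIR10.1) had far more transcript in the libraries labelled erf13-3 than in WT. It stood at 1.03, 0.96 and 1.25 FPKM in WT and 2595, 2711 and 3043 in erf13-3 (adjusted p = 9.4e-12, log2 fold change 11.19, SE 0.19). Every erf13-3 library was far above every WT library. In 35S:ERF13:MYC the level was 905, 789 and 773 FPKM, below every erf13-3 library (log2 fold change of erf13-3 over 35S:ERF13:MYC 1.74 at an adjusted p of 2.2e-07 and with an SE of 0.11). Counts do not tell the transcript of a transgene from that of the resident gene, so the level of the resident ERF13 transcript is not known, and the libraries labelled erf13-3 are not those of a line without ERF13 transcript. The genes next to ERF13 on the chromosome, AT2G44820, AT2G44830 and AT2G44850, were not called.

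KCS16 (AT4G34250, chromosome 4, plus strand), the 3-ketoacyl-CoA synthase gene the study is about, was higher in erf13-3. Its level was 1.65, 1.26 and 1.5 FPKM in WT and 4.07, 4.36 and 3.65 in erf13-3 (adjusted p = 0.00017, log2 fold change 1.31, SE 0.18). All 3 erf13-3 libraries lay above all 3 WT libraries. In 35S:ERF13:MYC it was at 0.31, 0.54 and 0.58 FPKM, under both other groups, and erf13-3 exceeded that line by a log2 fold change of 3.04 at an adjusted p of 4.6e-07 and with an SE of 0.21.

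In erf13-3 against WT, 5381 genes passed an adjusted p of 0.05 by edgeR's quasi-likelihood test with Benjamini-Hochberg adjustment (27.3% of those tested), 2689 higher (13.6%) and 2692 lower (13.7%). Changes of at least 2-fold were called in 770 genes that were higher (3.91%) and 833 that were lower (4.23%). In FPKM, all 3 erf13-3 libraries lay above all 3 WT libraries for 6382 genes (32.4%) and below them for 2381 (12.1%). These FPKM values were not scaled by TMM, unlike the calls. Both called and without overlap were 4874 genes (24.7%). Of all 5381 calls, 930 higher and 896 lower genes changed by under 0.5 on the log2 scale, and 989 and 963 by 0.5 to 1. Changes of 1 to 2 were seen in 585 and 598, of 2 to 3 in 118 and 151, and of 3 or more in 67 and 84. The even split depends on the scaling of the libraries. On FPKM as deposited, without TMM scaling, 70.5% to 71.2% of limma's calls were higher, and the median gene then stood 0.131 to 0.148 higher on the log2 scale, against 0.015 in the main fit. With FPKM divided by the TMM factor 49.1% of the calls were higher. With the replicate number as a block in a fit of the 6 libraries, 7200 genes were called, against 4491 without the block in the same libraries. The genes called lower took 30.1% to 33.2% of the counts of the WT libraries and 19.6% to 20.6% of those of the erf13-3 libraries, and the genes called higher took 8.69% to 9.13% and 14.8% to 15.3%.

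**Figure D1:**
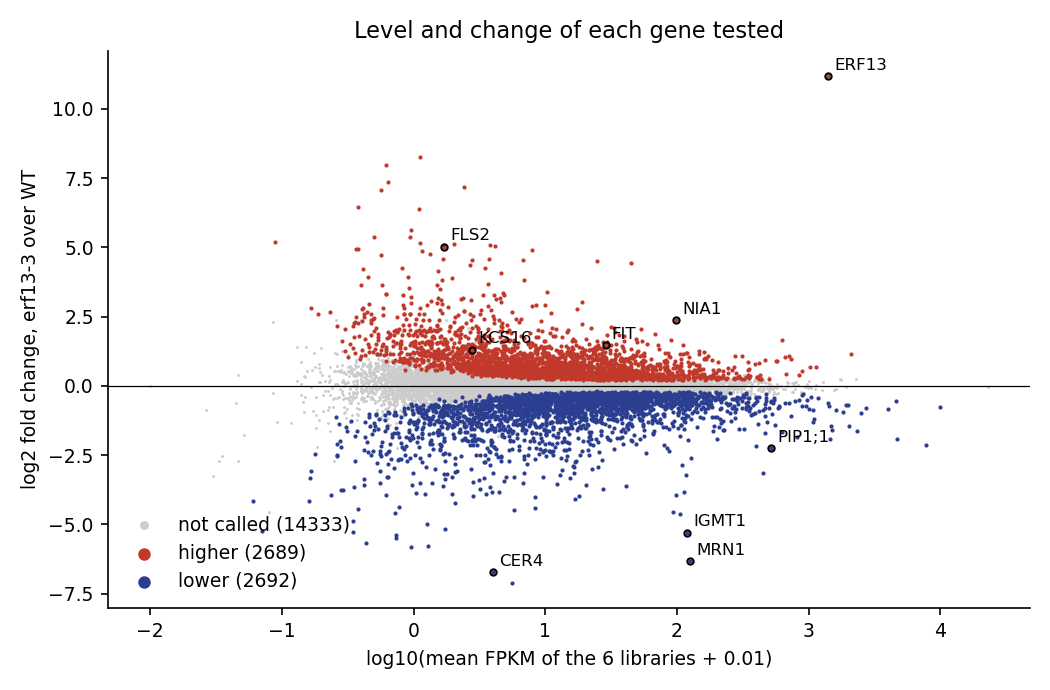
Each dot is a gene tested, at its mean FPKM over the 3 WT and 3 erf13-3 libraries (x axis, log10 scale) and its fitted log2 fold change of erf13-3 over WT (y axis), with called genes in red (2689 higher) and blue (2692 lower). ERF13 is the highest dot at 11.19, and CER4 at -6.72 and MRN1 at -6.34 lie near the bottom.

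The largest rises after ERF13 included receptor kinases, cytochromes P450 and small secreted proteins. FLS2, the receptor kinase that binds bacterial flagellin, stood at 0.1, 0.08 and 0.1 FPKM in WT and 2.78, 3.54 and 3.56 in erf13-3 (adjusted p = 2.0e-07, log2 fold change 5.03, SE 0.27). TI1, a trypsin inhibitor gene, stood at 0.98, 1.31 and 3.29 FPKM in WT and 49.7, 38.5 and 53.9 in erf13-3 (adjusted p = 7.6e-07, log2 fold change 4.52, SE 0.29). ZFP10, a zinc finger protein gene, stood at 0.36, 0.18 and 0.12 FPKM in WT and 9.02, 6.94 and 8.37 in erf13-3 (adjusted p = 6.3e-07, log2 fold change 5.04, SE 0.32). Each of these genes was near the detection limit or low in all WT libraries and above them in all erf13-3 libraries. GSTF14, a glutathione S-transferase gene, was at 0.69, 0.62 and 0.21 FPKM in WT and 12.7, 12.4 and 13.9 in erf13-3 (adjusted p = 1.7e-07, log2 fold change 4.53, SE 0.23). BGLU28, a beta-glucosidase gene known from sulfur-starved plants, was at 0.05, 0.11 and 0.05 FPKM in WT and 2.55, 2.19 and 1.95 in erf13-3 (adjusted p = 2.2e-06, log2 fold change 4.88, SE 0.37). MEE39, a leucine-rich repeat kinase gene, was at 0.33, 0.14 and 0.22 FPKM in WT and 3.99, 4.05 and 3.03 in erf13-3 (adjusted p = 4.6e-07, log2 fold change 3.88, SE 0.23). The groups of these genes did not overlap either, which the rule for naming the largest rises required. The P450 gene CYP76G1 and the receptor kinase-related gene EP1 had log2 fold changes of 4.78 and 3.64.

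For 3 of the largest rises WT held only 2 or 3 counts in all, and the summed counts give a ratio with an exact 95% interval for counting error only. CCOAMT, a caffeoyl-CoA O-methyltransferase gene, was 38.3 times as high in erf13-3 (interval 12.8 to 188), at 2.69 to 4.21 FPKM in that line. LCR37, a cysteine-rich peptide gene, was 38.0 times as high (12.7 to 187). CYP93D1 was 30.8 times as high (8.20 to 259), and its fitted log2 fold change of 4.71 became 7.46 without WT replicate 3, the only WT library with reads of it. Every erf13-3 library exceeded every WT library in these genes, as the rule for naming them required. Their levels in 35S:ERF13:MYC went apart, with CCOAMT at 8.36, 9.43 and 11.4 FPKM and CYP93D1 at 0 in all 3 libraries.

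The 12 largest falls that the rule for named genes picked were in CER4, MRN1, NAC042, RAP2.9, IGMT1, MIF2, HCHIB, LEA4-5, PUP10, BGAL7, HFR1 and CYP72A14. CER4 (AT4G33790, chromosome 4, 16204096 to 16207956 on the minus strand) encodes the fatty acyl-CoA reductase that makes the primary alcohols of wax, and it was at 6.01, 9.92 and 7.76 FPKM in WT and 0.14, 0.05 and 0.05 in erf13-3 (adjusted p = 1.9e-07, log2 fold change -6.72, SE 0.35). MRN1 (AT5G42600, chromosome 5, plus strand), the marneral synthase gene, was at 228, 268 and 249 FPKM in WT and 2.92, 3.42 and 3.75 in erf13-3 (adjusted p = 8.2e-11, log2 fold change -6.34, SE 0.14). IGMT1, a methyltransferase gene of indole glucosinolates whose reads may be shared with close relatives, was at 195, 258 and 237 FPKM in WT and 5.54, 3.99 and 9.68 in erf13-3 (adjusted p = 1.4e-07, log2 fold change -5.3, SE 0.27). In these genes the highest erf13-3 library stayed far below the lowest WT library. The rule for naming the largest falls required that the groups not overlap. CER4 and IGMT1 in 35S:ERF13:MYC lay near their WT levels, at 6.95, 6.1 and 6.54 FPKM and 303, 268 and 255 FPKM, while MRN1 was low there too, at 13.3, 14.8 and 14.8 FPKM.

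HCHIB, a basic chitinase gene, was at 138, 146 and 315 FPKM in WT and 8.46, 6.26 and 12.1 in erf13-3 (adjusted p = 3.4e-06, log2 fold change -4.64, SE 0.37), with WT replicate 3 above the other WT libraries. LEA4-5, which encodes a late embryogenesis abundant protein made in drying tissue, was at 18.9, 16 and 12.3 FPKM in WT and 0.83, 0.55 and 1.02 in erf13-3 (adjusted p = 5.3e-07, log2 fold change -4.41, SE 0.27). HFR1, a bHLH factor gene of light signalling, was at 14.7, 19.7 and 12.1 FPKM in WT and 1.3, 0.94 and 0.89 in erf13-3 (adjusted p = 2.3e-07, log2 fold change -4.02, SE 0.22). No erf13-3 library reached the lowest WT library in these genes, as the same rule required. CYP72A14 was at 30, 35.4 and 35.3 FPKM in WT and 2.4, 1.96 and 2.63 in erf13-3 (adjusted p = 1.5e-08, log2 fold change -3.98, SE 0.14), and BGAL7, a beta-galactosidase gene, and PUP10, a purine permease gene, had log2 fold changes of -4.22 and -4.37. On 1 count in erf13-3, NAC042, a NAC factor gene, was 77.3 times as high in WT (interval 13.4 to 3095), and RAP2.9, an AP2/ERF factor gene, 57.7 times (9.91 to 2321). On 3 counts, the mini zinc finger gene MIF2 was 35.5 times as high in WT (11.8 to 175). The 35S:ERF13:MYC libraries held NAC042 and RAP2.9 at 13.8, 13.4 and 10.1 FPKM and 10.5, 8.02 and 8.99 FPKM, above every WT and erf13-3 library.

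**Figure D2:**
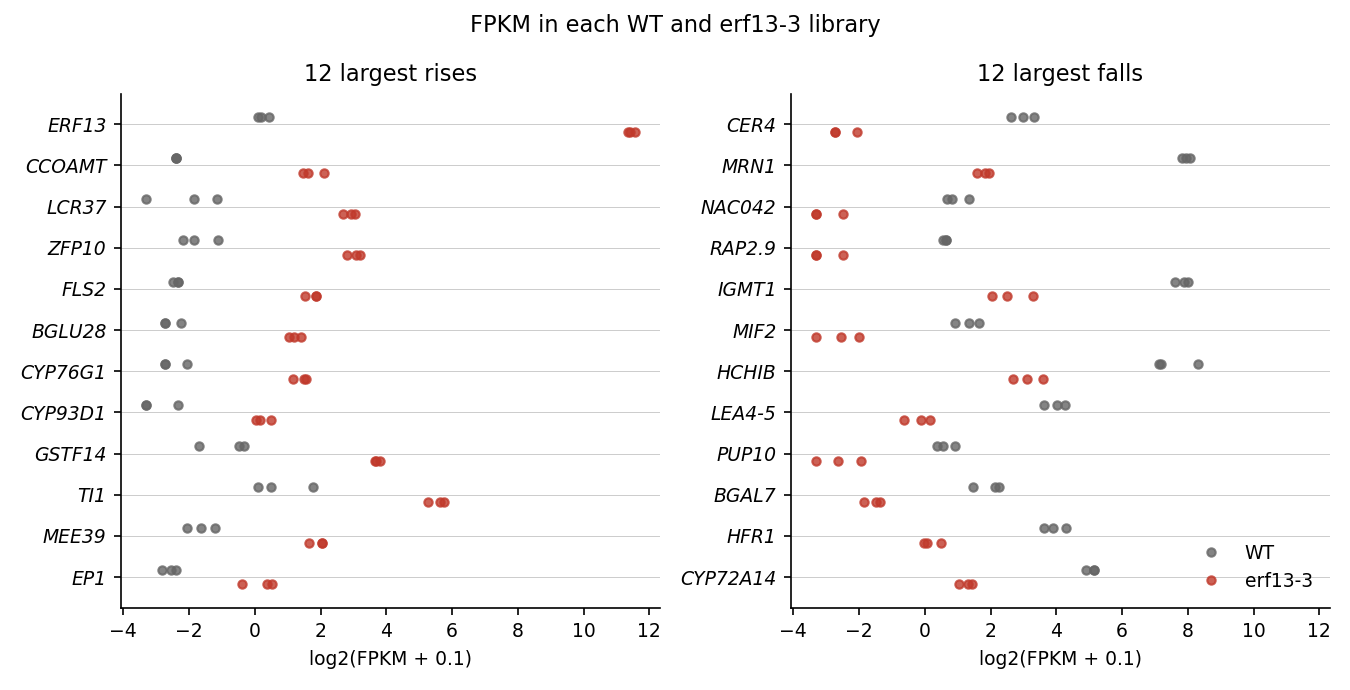
FPKM of the 12 largest rises (left) and 12 largest falls (right) on a log2(FPKM + 0.1) axis, with a dot for each WT library (grey) and each erf13-3 library (red). In all 24 genes the 3 dots of a genotype lie apart from the 3 of the other, as the rule for naming them required.

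Promoter windows of 300 bases, from 250 before to 50 after the RefSeq start site in TAIR10.1, were read for 19685 of the tested genes and searched on both strands for the core of the GCC box, GCCGCC, and the core of the dehydration-responsive element, CCGAC. The GCC box core was in 518 of all windows (2.63%), in 50 of 833 windows of genes at least 2-fold lower (6.0%) and in 8 of 769 windows of genes at least 2-fold higher (1.04%). CCGAC was in 3186 of all windows (16.2%), in 162 of the lower set (19.4%) and in 63 of the higher set (8.19%). These shares describe letters, not bound sites, and the base composition of the windows was not examined. Of the windows of the 12 largest rises and 12 largest falls, 0 of 24 held the GCC box core and 4 held CCGAC, those of BGLU28, RAP2.9, LEA4-5 and HFR1. The window of KCS16 held neither core. The windows of KCS16 (chr4:16394350-16394649, plus strand) and CER4 (chr4:16207907-16208206, minus strand) are printed as those of the study's gene and of the largest fall. Those of PUP7 (chr4:10071231-10071530, plus strand), OSM34 (chr4:7026175-7026474, minus strand) and FLS5 (chr5:25462519-25462818, minus strand) belong to 3 genes that hold a GCC box core, picked after their values were seen, and capitals mark the core. These had the largest falls among such called genes with a symbol and a mean of at least 1 FPKM in WT.
KCS16: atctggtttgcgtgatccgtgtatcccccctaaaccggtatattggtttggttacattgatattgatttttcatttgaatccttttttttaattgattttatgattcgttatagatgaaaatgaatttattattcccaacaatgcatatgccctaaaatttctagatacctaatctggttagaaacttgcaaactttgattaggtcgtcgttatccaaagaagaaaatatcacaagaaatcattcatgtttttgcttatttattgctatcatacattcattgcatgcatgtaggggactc
CER4: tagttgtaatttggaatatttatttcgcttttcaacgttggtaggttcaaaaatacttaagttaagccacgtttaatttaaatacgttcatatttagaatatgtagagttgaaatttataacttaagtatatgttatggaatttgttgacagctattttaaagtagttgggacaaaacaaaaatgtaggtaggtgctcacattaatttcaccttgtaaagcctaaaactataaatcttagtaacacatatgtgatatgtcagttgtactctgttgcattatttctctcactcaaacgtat
PUP7: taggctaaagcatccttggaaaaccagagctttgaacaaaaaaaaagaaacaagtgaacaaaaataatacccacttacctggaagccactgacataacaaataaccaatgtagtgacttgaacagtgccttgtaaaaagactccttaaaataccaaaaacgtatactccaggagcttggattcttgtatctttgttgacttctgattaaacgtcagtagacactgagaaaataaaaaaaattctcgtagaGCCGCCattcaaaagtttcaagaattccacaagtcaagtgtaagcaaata
OSM34: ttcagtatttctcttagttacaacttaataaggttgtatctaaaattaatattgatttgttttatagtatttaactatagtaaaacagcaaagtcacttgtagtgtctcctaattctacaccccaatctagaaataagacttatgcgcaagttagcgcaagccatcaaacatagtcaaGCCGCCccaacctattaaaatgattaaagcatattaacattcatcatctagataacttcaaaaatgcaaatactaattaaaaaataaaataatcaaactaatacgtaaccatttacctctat
FLS5: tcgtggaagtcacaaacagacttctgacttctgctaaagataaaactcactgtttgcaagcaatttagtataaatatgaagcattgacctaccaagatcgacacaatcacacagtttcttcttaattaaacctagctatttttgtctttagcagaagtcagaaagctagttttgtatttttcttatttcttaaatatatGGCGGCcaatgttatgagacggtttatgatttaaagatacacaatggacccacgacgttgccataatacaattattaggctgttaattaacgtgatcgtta

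In PUP7, a purine permease gene, the core begins at the start site itself, and the level was at 1.49, 2.68 and 2.63 FPKM in WT and 0.13, 0.04 and 0.31 in erf13-3 (adjusted p = 3.0e-05, log2 fold change -3.89, SE 0.42). In OSM34, which encodes osmotin 34, a defence protein, it begins 72 bases before the start site, and the level was 150.4, 156 and 327 FPKM in WT and 14.1, 12.1 and 22.9 in erf13-3 (adjusted p = 1.1e-05, log2 fold change -3.84, SE 0.36). In FLS5, a relative of flavonol synthase whose reads may be shared with its paralogs, it begins 51 bases before the start site on the other strand, and the level was 191, 211 and 223 FPKM in WT and 25.7, 22.9 and 25.1 in erf13-3 (adjusted p = 8.0e-09, log2 fold change -3.22, SE 0.11). None of these genes had an erf13-3 library that reached a WT library. In 35S:ERF13:MYC they were at 39.4, 40 and 38.5 FPKM, 156, 112 and 121 FPKM and 260.5, 259.5 and 282 FPKM.

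Among genes of very-long-chain fatty acid elongation, 6 of 19 tested were higher and 5 lower, with a median log2 fold change of -0.07 (0.015 over all genes tested). For this and every list below, the shares over all genes tested were 13.6% higher and 13.7% lower. The members that rose were KCS8, KCS12, KCS16, KCS10, KCS4 and KCS11, and those that fell were KCS3, KCS2, KCS20, KCS9 and ACC1, the cytosolic acetyl-CoA carboxylase that supplies malonyl-CoA. The call of KCS10 (0.41) was lost without any single library other than WT replicate 3 and 35S:ERF13:MYC replicate 1, at adjusted p-values of 0.057 to 0.17. KCS3 fell from 2.89, 2.45 and 2.63 FPKM in WT to 0.62, 0.66 and 0.89 in erf13-3 (adjusted p = 1.9e-05, log2 fold change -2.0, SE 0.2). KCS2, known for suberin chains in roots, was at 169, 164 and 183 FPKM in WT and 122, 115 and 112 in erf13-3 (adjusted p = 9.3e-05, log2 fold change -0.71, SE 0.09). KCS8 was at 0.41, 0.29 and 0.29 FPKM in WT and 1.17, 1.29 and 1.42 in erf13-3 (adjusted p = 0.00029, log2 fold change 1.82, SE 0.26). No libraries of WT and erf13-3 overlapped in these genes. In this and the other lists, members given with values were mostly picked for small p-values. Of all 5381 calls 4874 had no overlap, so groups that lie apart add no separate support. The other enzymes of the elongase, KCR1, PAS2 and CER10, were not called, and KCS1 and KCS6 were not either.

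Of 21 wax and cuticle genes tested, 13 were higher and 3 lower, with a median log2 fold change of 0.43. The 3 that fell were CER4, GPAT4 and MYB96. GPAT4, a glycerol-3-phosphate acyltransferase gene of cutin, was at 93.8, 91.9 and 108 FPKM in WT and 34.9, 32.8 and 36.2 in erf13-3 (adjusted p = 6.4e-07, log2 fold change -1.64, SE 0.1). LTPG2, a lipid transfer protein gene for wax export, was at 6.14, 5.95 and 8.82 FPKM in WT and 26, 24.2 and 26.6 in erf13-3 (adjusted p = 9.1e-06, log2 fold change 1.68, SE 0.15). HTH, a cuticle gene known from fused floral organs, was at 4.64, 2.75 and 3.39 FPKM in WT and 10.7, 12.2 and 10.9 in erf13-3 (adjusted p = 1.3e-05, log2 fold change 1.52, SE 0.15). The groups of each gene were apart. The alkane-forming CER1 and CER3 (log2 fold change 0.72 and 0.73), the exporter ABCG11 (0.81) and the regulator MYB94 (1.12) rose while the alcohol-forming CER4 fell. The call of CER1 was lost without any single library other than WT replicate 3 and 35S:ERF13:MYC replicate 1 (adjusted p of 0.053 to 0.15), and its log2 fold change was 1.08 without WT replicate 3. That of MYB94 was lost without WT replicate 2 (0.071), and that of MYB96 without replicate 1 or 2 of WT or of erf13-3 (0.050 to 0.11). The summed level of the list was 208 to 237 FPKM in WT and 232 to 238 in erf13-3.

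Of 18 suberin genes 8 were lower and 0 higher, with a median of -0.15. Without WT replicate 3, 2 were higher. FAR1, which makes fatty alcohols of suberin, was at 16.2, 17.2 and 22.1 FPKM in WT and 6.39, 6.43 and 5.95 in erf13-3 (adjusted p = 1.2e-05, log2 fold change -1.71, SE 0.16). GPAT7, an acyltransferase gene, was at 17.38, 18.1 and 18.8 FPKM in WT and 9.49, 8.06 and 8.98 in erf13-3 (adjusted p = 1.0e-05, log2 fold change -1.17, SE 0.11). The suberin regulator gene MYB107 was at 8.02, 8.8 and 8.75 FPKM in WT and 6.28, 4.69 and 5.38 in erf13-3 (adjusted p = 0.0012, log2 fold change -0.79, SE 0.14). In each of these genes all erf13-3 libraries were under all WT libraries. CYP86A1, CYP86B1, ASFT and the exporters ABCG2 and ABCG20 were not called. All of the fatty acyl-CoA reductase genes called in these lists, CER4, FAR1 and FAR5, fell.

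Of 11 Casparian strip genes 6 were higher and 1 lower, with a median of 0.34. CASP5, a scaffold gene of the strip, was at 34.8, 41.5 and 37.7 FPKM in WT and 63.3, 61.1 and 58.6 in erf13-3 (adjusted p = 0.0017, log2 fold change 0.54, SE 0.1). MYB36, the regulator of strip genes, was at 16, 17.8 and 15.5 FPKM in WT and 26.2, 28.8 and 23.9 in erf13-3 (adjusted p = 0.0012, log2 fold change 0.54, SE 0.1). RBOHF, the NADPH oxidase gene whose product feeds lignin polymerisation there, was at 16.8, 19.1 and 15.4 FPKM in WT and 14.2, 14 and 11.4 in erf13-3 (adjusted p = 0.00095, log2 fold change -0.51, SE 0.09). The groups were apart in all of these genes. The list's summed level was 783 to 1002 FPKM in WT and 1146 to 1322 in erf13-3. In 35S:ERF13:MYC it was 520 to 543, and 10 of the 11 genes were higher in erf13-3 than in that line, where 21.1% of all genes tested were. Among 6 lipid transfer protein genes, LTP5 rose from 6.55, 4.54 and 5.39 FPKM in WT to 24.3, 24.9 and 23.4 in erf13-3 (adjusted p = 8.5e-07, log2 fold change 2.0, SE 0.13) and LTP6 rose too (1.06). The call of LTP2 as lower, at a log2 fold change of -0.56 (adjusted p = 0.046), was lost without any of WT replicate 3, erf13-3 replicate 1, 2 or 3 and 35S:ERF13:MYC replicate 2 or 3, at adjusted p-values of 0.051 to 0.15, and on FPKM with and without TMM scaling. Without WT replicate 1 or 2 the count of lower genes in this list was 2.

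Triterpene and squalene genes showed 7 falls and 0 rises among 13 tested, with a median of -1.14, all 7 of them by at least 2-fold. Besides MRN1 they were CYP71A16 and CYP705A12 of the marneral cluster, THAS1 and THAH of the thalianol cluster, and SQE6 and SQP2, squalene epoxidase-type genes. SQP2 was at 21.1, 22.4 and 23.3 FPKM in WT and 1.43, 2.28 and 2.56 in erf13-3 (adjusted p = 8.3e-08, log2 fold change -3.54, SE 0.17). CYP71A16, which oxidises marneral products, was at 114, 116 and 126 FPKM in WT and 43.6, 46.4 and 50 in erf13-3 (adjusted p = 7.9e-07, log2 fold change -1.48, SE 0.1). THAH, the thalianol hydroxylase gene, was at 267, 287 and 341 FPKM in WT and 119, 137 and 133 in erf13-3 (adjusted p = 9.7e-06, log2 fold change -1.33, SE 0.12). No erf13-3 library reached a WT library in any of them. THAD, of the thalianol cluster, and the squalene epoxidase genes SQE1, SQE2 and SQE3, of which SQE1 serves sterol synthesis, were not called.

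Cell wall remodelling genes split, with 9 of 31 higher and 6 lower and a median of 0.13. EXPB1, a beta-expansin gene, was at 33.4, 32.9 and 29.9 FPKM in WT and 77.2, 77.4 and 84.2 in erf13-3 (adjusted p = 1.0e-06, log2 fold change 1.18, SE 0.08). EXLA1, an expansin-like gene, was at 14.4, 15.8 and 18.1 FPKM in WT and 34.1, 43.5 and 45.1 in erf13-3 (adjusted p = 6.7e-05, log2 fold change 1.21, SE 0.14). EXPA17, an alpha-expansin gene known from lateral root emergence, was at 27.6, 31.7 and 25.2 FPKM in WT and 16.9, 19.1 and 17.5 in erf13-3 (adjusted p = 7.7e-05, log2 fold change -0.8, SE 0.1). These groups did not overlap. The xyloglucan-modifying XTH12, XTH13 and XTH26 rose, and XTH16, XTH21 and XTH24 fell, XTH24 (-0.46) losing its call without WT replicate 2 or 3, 35S:ERF13:MYC replicate 2 or erf13-3 replicate 1 or 2 (adjusted p of 0.055 to 0.15).

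Of 20 lateral root genes 6 were higher and 2 lower, with a median of 0.12. LBD29, a transcription factor gene downstream of auxin response factors, was at 2.45, 3.8 and 2.8 FPKM in WT and 9.41, 8.68 and 8.31 in erf13-3 (adjusted p = 0.00014, log2 fold change 1.4, SE 0.18). ARF7, the auxin response factor that acts upstream of LBD genes, was at 21.7, 22.6 and 19.3 FPKM in WT and 16, 15.4 and 14.4 in erf13-3 (adjusted p = 4.9e-05, log2 fold change -0.61, SE 0.07). ADPG2, a polygalacturonase gene of cell separation, was at 0.42, 0.32 and 0.32 FPKM in WT and 1.4, 1.58 and 1.31 in erf13-3 (adjusted p = 0.0015, log2 fold change 1.86, SE 0.34). The auxin importer gene LAX3 (0.51), the receptor kinase genes ACR4 (0.52) and HSL2 (0.59) and PLT3 (0.59) rose and PLT5 (-0.64) fell. The call of ACR4 was lost without WT replicate 2 or erf13-3 replicate 1 or 2 (adjusted p of 0.073 to 0.089). LBD16, LBD18, PUCHI, GATA23, IDA and HAE were not called. The level summed over the list was 218 to 221 FPKM in WT and 265 to 283 in erf13-3.

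Of 33 auxin genes 12 were higher and 5 lower, with a median of 0.11. GH3.3, which encodes an enzyme that conjugates auxin to amino acids, was at 1.53, 1.68 and 2.22 FPKM in WT and 13.9, 15.2 and 16.2 in erf13-3 (adjusted p = 2.0e-07, log2 fold change 2.93, SE 0.16). LAX1, an auxin importer gene, was at 18.5, 22.2 and 24.2 FPKM in WT and 5.64, 5.42 and 7.34 in erf13-3 (adjusted p = 2.4e-06, log2 fold change -1.99, SE 0.15). LAX2, its paralog, was at 23.8, 21.8 and 28 FPKM in WT and 13.5, 13 and 11.2 in erf13-3 (adjusted p = 3.0e-05, log2 fold change -1.11, SE 0.12). All erf13-3 libraries lay on the same side of all WT libraries in each gene. Among the conjugating enzymes, GH3.1, GH3.5 and GH3.6 also rose. Of the auxin synthesis genes YUC5, YUC8 and YUC9 rose and YUC3 fell, and of the exporters PIN2 and PIN7 rose.

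Cytokinin genes numbered 4 higher and 6 lower of 19, with a median of -0.23. The response regulator genes ARR15 (2.01) and ARR17 (1.69) rose, and ARR8 and ARR9 fell, the latter from 32.7, 34.2 and 29.9 FPKM in WT to 20, 21.4 and 19.5 in erf13-3 (adjusted p = 5.6e-05, log2 fold change -0.82, SE 0.1). The groups of ARR9 did not overlap, and the call of ARR8 (-0.64) was lost without WT replicate 1 or 2 or erf13-3 replicate 1 or 3 (adjusted p of 0.072 to 0.11). Of 16 gibberellin and brassinosteroid genes 6 were higher and 4 lower, with a median of 0.05, and 2 and 1 were lower without erf13-3 replicate 1 and 2. GA3OX1, of gibberellin synthesis, was at 9.81, 6.45 and 8.5 FPKM in WT and 20.5, 22 and 21.5 in erf13-3 (adjusted p = 3.0e-05, log2 fold change 1.24, SE 0.13). BAS1, a P450 gene that inactivates brassinosteroids, was at 5.83, 5.1 and 5.19 FPKM in WT and 1.96, 2.28 and 1.63 in erf13-3 (adjusted p = 3.4e-06, log2 fold change -1.6, SE 0.13). GA20OX2 (1.2) and the gibberellin-regulated GASA4 (0.92) rose as well, each with groups apart.

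Ethylene genes counted 6 higher and 2 lower of 19, with a median of 0.10, and 1 was lower without erf13-3 replicate 2. ACS11, an enzyme gene of ethylene precursor synthesis, was at 0.22, 0.31 and 0.27 FPKM in WT and 2.2, 2.01 and 2.48 in erf13-3 (adjusted p = 8.1e-06, log2 fold change 2.9, SE 0.26). ETR2, an ethylene receptor gene, was at 3.56, 3.99 and 4.26 FPKM in WT and 9.42, 8.35 and 8.17 in erf13-3 (adjusted p = 5.7e-05, log2 fold change 0.99, SE 0.12). CTR1, the kinase that restrains ethylene signalling, was at 26.4, 27.1 and 25.1 FPKM in WT and 22.5, 21.1 and 22.1 in erf13-3 (adjusted p = 0.0015, log2 fold change -0.39, SE 0.07). No libraries overlapped between the genotypes in these genes. ACS6 and ACS7 rose too, by 1.09 and 1.26.

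In the ERF family 4 of 22 genes, ERF13 itself included, were higher and 11 lower, with a median of -0.31. Without WT replicate 3, 8 were higher. ERF2, an activator, was at 0.31, 1.05 and 0.99 FPKM in WT and 8.66, 7.18 and 7.22 in erf13-3 (adjusted p = 7.7e-05, log2 fold change 3.14, SE 0.38). ERF4, a repressor, was at 70.4, 81.9 and 80.3 FPKM in WT and 38.7, 25.3 and 35.8 in erf13-3 (adjusted p = 6.8e-05, log2 fold change -1.36, SE 0.16). RAP2.6 was at 61.2, 64.5 and 54.5 FPKM in WT and 28.8, 24.9 and 24.4 in erf13-3 (adjusted p = 7.6e-07, log2 fold change -1.34, SE 0.09). The erf13-3 libraries did not overlap with WT in these genes. The repressors ERF3, ERF8, ERF9 and ERF11 fell with ERF4, as did the defence regulators ORA59 (-2.48) and ERF15 (-2.15), while ERF6 (1.39) and RRTF1 (1.33) rose. The call of ORA59 was lost without any single library other than WT replicate 2 and erf13-3 replicate 3 (adjusted p of 0.053 to 0.16), and that of ERF3 (-0.35) without WT replicate 2 or 3 or erf13-3 replicate 1 or 2 (0.052 to 0.089).

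Abscisic acid, cold and dehydration genes were called in 24 of 29 cases, 18 lower and 6 higher, with a median of -0.57. RD29A, whose promoter is the textbook example of a dehydration-responsive element, was at 34, 30.8 and 22.5 FPKM in WT and 5.46, 5.31 and 3.51 in erf13-3 (adjusted p = 1.6e-06, log2 fold change -2.74, SE 0.2). RD29B was at 9.22, 7.14 and 5.53 FPKM in WT and 0.65, 0.46 and 0.56 in erf13-3 (adjusted p = 1.3e-06, log2 fold change -3.83, SE 0.27). LTI30, a dehydrin gene, was at 210.5, 205 and 154 FPKM in WT and 62.2, 48 and 50.4 in erf13-3 (adjusted p = 1.5e-06, log2 fold change -1.96, SE 0.14). In these genes WT replicate 3 was the lowest WT library, and it still exceeded every erf13-3 library. The phosphatase genes HAI1, HAI2, HAB1, ABI1 and ABI2, which restrain abscisic acid signalling and are induced by the hormone, fell, HAI1 from 47.5, 52.2 and 42.3 FPKM in WT to 16.9, 16.3 and 16 in erf13-3 (adjusted p = 5.6e-06, log2 fold change -1.66, SE 0.14). The synthesis gene NCED3 fell (-0.83). The 6 members that rose were the receptor genes PYL4 (0.72), PYL5 (1.09) and PYL6 (2.06), CYP707A1 (0.31) and CYP707A3 (1.76), which degrade the hormone, and the cold regulator gene CBF2 (0.94). The call of CYP707A1 was lost without WT replicate 1 or 2 or erf13-3 replicate 2 (adjusted p of 0.061 to 0.11), and that of ABI2 (-0.39) without erf13-3 replicate 2 (0.053). That of CBF2 was lost without WT replicate 1 or 2 or erf13-3 replicate 1 (0.067 to 0.14), with a log2 fold change of 0.62 without the last.

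Jasmonate genes numbered 6 higher and 4 lower of 22, with a median of 0.11. AOC3, of jasmonate synthesis, was at 22.3, 19.6 and 27.2 FPKM in WT and 56.9, 51.3 and 46.2 in erf13-3 (adjusted p = 0.00014, log2 fold change 1.01, SE 0.13), and its close copies AOC1 and AOC2, with which it may share reads, rose as well. CYP94C1, an enzyme gene of jasmonate turnover, was at 0.85, 1.05 and 1.17 FPKM in WT and 3.14, 3.85 and 4.69 in erf13-3 (adjusted p = 9.7e-05, log2 fold change 1.79, SE 0.22). CYP94B3, of the same turnover, was at 5.16, 6.8 and 5.94 FPKM in WT and 2.85, 2.03 and 1.96 in erf13-3 (adjusted p = 4.6e-05, log2 fold change -1.53, SE 0.17). The groups lay apart in all of these genes. The repressor gene JAZ7 fell (-1.61), and LOX2, AOS and MYC2 were not called.

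Of 23 genes of pattern-triggered immunity 8 were higher and 2 lower, with a median of 0.28. Next to FLS2, its early target gene FRK1, a receptor kinase, was at 0.15, 0.24 and 0.21 FPKM in WT and 2.77, 3.35 and 2.17 in erf13-3 (adjusted p = 8.9e-06, log2 fold change 3.64, SE 0.33). WRKY53, a transcription factor gene, was at 2.68, 2.89 and 3.28 FPKM in WT and 9.66, 11.3 and 11.3 in erf13-3 (adjusted p = 4.8e-06, log2 fold change 1.73, SE 0.15). NHL10, a defence marker gene, was at 22.9, 30.5 and 34.5 FPKM in WT and 3.8, 4.1 and 6.98 in erf13-3 (adjusted p = 1.2e-05, log2 fold change -2.7, SE 0.26). The groups did not overlap, and NHL10 fell while the other named genes rose. PROPEP2 and PROPEP3, precursors of danger peptides, rose by 1.76 and 1.8 on the log2 scale. The receptor genes EFR, CERK1, PEPR1 and PEPR2 and the co-receptor gene BAK1 were not called. In 35S:ERF13:MYC, FLS2 stood at 0.04, 0 and 0.02 FPKM.

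Among 9 salicylate genes 3 were higher and 2 lower, with a median of -0.18. FMO1, of systemic defence, was at 0.29, 0.3 and 0.42 FPKM in WT and 3.03, 2.72 and 3.03 in erf13-3 (adjusted p = 1.7e-05, log2 fold change 2.96, SE 0.25). ICS1, the salicylate synthesis gene, was at 6.3, 5.78 and 5.8 FPKM in WT and 2.76, 2.8 and 3.01 in erf13-3 (adjusted p = 9.1e-05, log2 fold change -1.19, SE 0.15). PAD4, a regulator of defence, was at 7.92, 7.53 and 9.05 FPKM in WT and 11.7, 13.8 and 12.7 in erf13-3 (adjusted p = 0.0084, log2 fold change 0.5, SE 0.12). Each of these had groups that lay apart, with FMO1 and PAD4 higher and ICS1 lower. PR1, PR2 and PR5 were not analysed here.

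Aliphatic glucosinolate genes were higher in 10 of 13 cases and lower in 0, with a median of 0.69. The list's summed level was 126 to 187 FPKM in WT, 260 to 267 in erf13-3 and 302 to 361 in 35S:ERF13:MYC. In 35S:ERF13:MYC 9 of the 13 were higher than in WT and 0 lower, against 2713 and 3496 of all 19714 genes tested. MAM1, which extends the methionine chain, was at 7.25, 5.57 and 7.79 FPKM in WT and 18.4, 18.8 and 17.5 in erf13-3 (adjusted p = 3.2e-05, log2 fold change 1.26, SE 0.14), and may share reads with MAM3 (0.92). CYP83A1, of the core pathway, was at 4.73, 3.93 and 7.12 FPKM in WT and 15.6, 14.7 and 15.5 in erf13-3 (adjusted p = 0.00055, log2 fold change 1.39, SE 0.22). MYB28, the main regulator, had a log2 fold change of 0.69, and MYB29 and MYB76 were not called. The call of MYB28 was lost without any single library other than WT replicate 3 and 35S:ERF13:MYC replicate 1 or 3 (adjusted p of 0.052 to 0.15), and its log2 fold change was 1.1 without WT replicate 3. Every erf13-3 library of MAM1 and CYP83A1 exceeded every WT library. FMO GS-OX1, a side-chain oxygenase gene, rose by 2.5. Indole glucosinolate and camalexin genes counted 3 higher and 7 lower of 20, with a median of -0.05. Besides IGMT1, CYP71B15, the last enzyme gene of camalexin synthesis, was at 1.32, 1.73 and 2.24 FPKM in WT and 0.37, 0.46 and 0.41 in erf13-3 (adjusted p = 0.0003, log2 fold change -2.21, SE 0.32). PYK10, the main beta-glucosidase of root endoplasmic reticulum bodies, was at 10940, 12130 and 12940 FPKM in WT and 7594, 7665 and 8106 in erf13-3 (adjusted p = 0.0011, log2 fold change -0.76, SE 0.13). These fell without overlap. CYP79B2, CYP79B3 and CYP83B1, at the start of the indole pathway, were not called.

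Of 23 sulfate genes 8 were higher and 1 lower, with a median of 0.035. GGCT2;1, a glutathione-degrading enzyme gene, was at 0.58, 0.51 and 0.94 FPKM in WT and 7.69, 7.78 and 6.72 in erf13-3 (adjusted p = 1.6e-06, log2 fold change 3.3, SE 0.24). SULTR2;1, a sulfate transporter gene of the vascular tissue, was at 8.16, 7.34 and 10.1 FPKM in WT and 20.9, 24.5 and 22.9 in erf13-3 (adjusted p = 0.00022, log2 fold change 1.28, SE 0.18). Both rose with no overlap, as did SDI1 (0.93), which restrains glucosinolate synthesis in sulfur shortage. The call of SDI1 was lost without WT replicate 1 or 2 or erf13-3 replicate 1 (adjusted p of 0.065 to 0.087). SULTR1;1 (0.96) rose as well, while the reductase genes APR1, APR2 and APR3 and the LSU1 and LSU2 genes of sulfur shortage were not called.

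Of 34 iron genes 14 were higher and 4 lower, with a median of 0.30. FIT, the bHLH factor that switches on iron uptake, was at 14, 14.4 and 14.2 FPKM in WT and 44.8, 45.5 and 39.1 in erf13-3 (adjusted p = 2.3e-07, log2 fold change 1.48, SE 0.08). CYP82C4, a hydroxylase gene of iron-mobilising coumarins, was at 2.14, 1.8 and 1.32 FPKM in WT and 10.1, 9.61 and 11.1 in erf13-3 (adjusted p = 6.4e-06, log2 fold change 2.41, SE 0.21). F6'H1, which makes the coumarin scopoletin, was at 19.4, 20.3 and 29.5 FPKM in WT and 66.7, 78.3 and 84.1 in erf13-3 (adjusted p = 3.1e-05, log2 fold change 1.58, SE 0.17). In all of these the erf13-3 libraries were above the WT libraries. The iron transporter gene IRT1 (1.29), the ferric reductase gene FRO2 (1.2), the proton pump gene AHA7 (1.04) and FIT's partners BHLH38, BHLH39 and BHLH101 (1.01, 1.15 and 1.6) rose. The call of BHLH38 was lost without replicate 2 or 3 of WT or of erf13-3 (adjusted p of 0.060 to 0.095). NRAMP1, a manganese and iron transporter gene, fell from 47.1, 54.2 and 44.6 FPKM in WT to 15, 10.9 and 14.9 in erf13-3 (adjusted p = 6.1e-07, log2 fold change -1.97, SE 0.12). In 35S:ERF13:MYC, FIT was at 6.32, 5.92 and 6.02 FPKM and CYP82C4 at 0.04, 0.09 and 0.36 FPKM, below both other groups.

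Phosphate genes were lower in 15 of 26 cases and higher in 1, with a median of -0.99. The count of lower genes was 9 without erf13-3 replicate 1, 9 without erf13-3 replicate 2, and 8 or 9 on FPKM without TMM scaling. The count of higher genes, RNS1 alone, was 3 without WT replicate 3 and 0 without WT replicate 1 or 2, erf13-3 replicate 2 or 3, or 35S:ERF13:MYC replicate 2 or 3. PHO1, which loads phosphate into the xylem, was at 181, 180.3 and 159.7 FPKM in WT and 91.5, 81.3 and 77.4 in erf13-3 (adjusted p = 5.7e-07, log2 fold change -1.19, SE 0.07). PHO2, which marks phosphate transporters for degradation, was at 52.5, 65 and 60 FPKM in WT and 26.9, 24.3 and 24.8 in erf13-3 (adjusted p = 1.3e-06, log2 fold change -1.36, SE 0.1). The groups of these genes did not overlap. SPX3, a phosphate sensor gene picked after its values were seen, was at 2.88, 2.88 and 31.3 FPKM in WT and 1.73, 0.82 and 1.09 in erf13-3 (adjusted p = 0.015, log2 fold change -3.52, SE 0.93). Without WT replicate 3 its log2 fold change was -1.34, and without erf13-3 replicate 2 its adjusted p was 0.055. Leaving out WT replicate 3 also shrank the falls of PHT1;8, SPX1, SQD2, MGD3, IPS1, AT4, PEPC1, PS2 and GDPD1. The log2 fold change of IPS1 went from -2.53 to -0.25, and that of SQD2 from -1.06 to -0.36. Those of PHO1, PHO1;H1, PHR1, PHO2 and NLA did not shrink so. The size of the fall over the list thus rests in part on WT replicate 3. The calls of PHT1;8, SPX1, SQD2, IPS1, PEPC1 and GDPD1 were each lost without some single library, at adjusted p-values of 0.050 to 0.60. Those of MGD3, AT4 and PS2 were kept under every alternative. The summed level of the list in WT was 986 and 1005 FPKM in replicates 1 and 2 and 2064 in replicate 3, and in erf13-3 it was 864 to 1016. The transporter genes PHT1;1 to PHT1;5 of the list were not called.

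Nitrate and ammonium genes were higher in 13 of 26 cases and lower in 7, with a median of 0.26, and 4 were lower on filtered FPKM without TMM scaling. NIA1, a nitrate reductase gene, was at 26, 27.6 and 35.1 FPKM in WT and 152, 163 and 191 in erf13-3 (adjusted p = 1.0e-06, log2 fold change 2.37, SE 0.16). NIR1, the nitrite reductase gene, was at 48.3, 51.7 and 58 FPKM in WT and 115, 114 and 137 in erf13-3 (adjusted p = 3.9e-05, log2 fold change 1.07, SE 0.12). RFNR2, a root ferredoxin reductase gene, was at 83.9, 85.3 and 88.2 FPKM in WT and 203, 224 and 202 in erf13-3 (adjusted p = 1.0e-06, log2 fold change 1.15, SE 0.08). The erf13-3 libraries lay above the WT libraries in all 3 genes. HRS1, a nitrate-induced repressor gene, fell from 63.9, 68.7 and 60.9 FPKM in WT to 22.3, 25.6 and 29.4 in erf13-3 (adjusted p = 2.2e-06, log2 fold change -1.46, SE 0.11), as did NRT1.5 (-0.99), which loads nitrate into the xylem, and NRT1.8 (-1.62), which retrieves it. The call of NRT1.8 was lost without WT replicate 2 or erf13-3 replicate 1 (adjusted p of 0.051 to 0.052). The uptake genes NRT1.1 and NRT2.1 were not called.

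Of 23 aquaporin genes 10 were lower and 6 higher, with a median of 0.035, and 10 were higher without WT replicate 3 and on filtered FPKM without TMM scaling. PIP1;1, of the plasma membrane, was at 787, 876 and 868 FPKM in WT and 191, 168 and 225 in erf13-3 (adjusted p = 2.9e-07, log2 fold change -2.25, SE 0.13). TIP2;2, of the vacuole membrane, was at 569.8, 673 and 695 FPKM in WT and 141, 138 and 190 in erf13-3 (adjusted p = 1.2e-06, log2 fold change -2.18, SE 0.15). NIP1;1 was at 105, 102 and 96.6 FPKM in WT and 215, 230.2 and 230.4 in erf13-3 (adjusted p = 1.2e-06, log2 fold change 1.02, SE 0.07). Of the 10 members that fell, 9 had WT means of 270.4 to 2113 FPKM and PIP2;5 one of 2.15, while the 6 that rose had WT means of 4.66 to 283. The summed level of the list was 12920 to 15090 FPKM in WT and 9846 to 11990 in erf13-3. PIP2;3, which may share reads with the near-identical PIP2;2, was at 269, 269 and 274 FPKM in WT and 111, 100.7 and 117 in erf13-3 (adjusted p = 8.0e-07, log2 fold change -1.44, SE 0.1). None of these genes had overlapping groups.

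**Figure D3:**
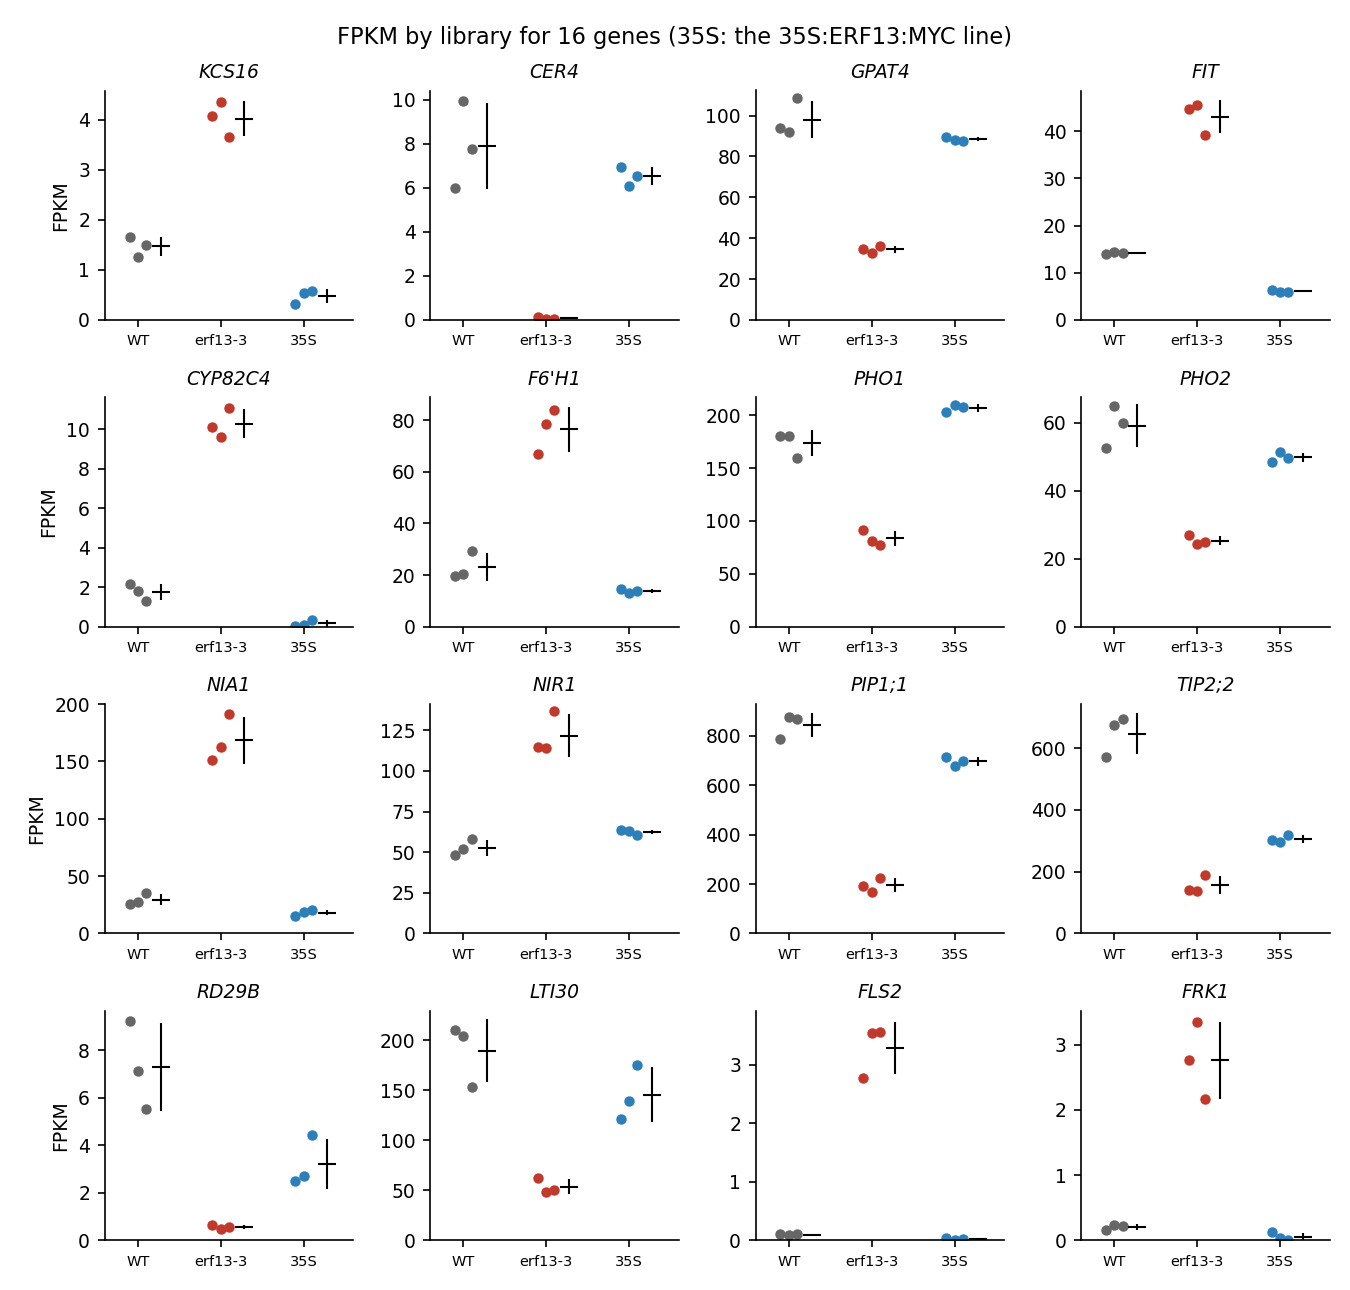
FPKM in each of the 9 libraries for 16 genes, with WT in grey, erf13-3 in red and 35S:ERF13:MYC in blue, and a black bar for mean ± SD (n = 3) beside the dots. In every panel the red dots lie apart from the grey ones, above them for KCS16, FIT, CYP82C4, F6'H1, NIA1, NIR1, FLS2 and FRK1 and below them for the others.

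Of 20 root hair and epidermal fate genes 6 were higher and 1 lower, with a median of 0.29. On other settings 12 were higher on FPKM without TMM scaling, and 2 were lower without erf13-3 replicate 3. RSL2, a bHLH factor gene of hair growth, was at 9.61, 9.61 and 8.22 FPKM in WT and 2.15, 1.9 and 2.15 in erf13-3 (adjusted p = 2.2e-06, log2 fold change -2.28, SE 0.17). RSL4, its relative, was at 6.81, 8.09 and 6.65 FPKM in WT and 13.6, 15.1 and 14.2 in erf13-3 (adjusted p = 0.00014, log2 fold change 0.85, SE 0.11). The former fell and the latter rose, with no overlap in either. Among 20 meristem and root cap genes 7 were higher and 6 lower, with a median of 0.18. SCR, of the endodermis and quiescent centre, was at 17.8, 18.6 and 20.4 FPKM in WT and 33.1, 33.8 and 35.9 in erf13-3 (adjusted p = 0.00018, log2 fold change 0.72, SE 0.1), and SHR, PLT1, PLT2 and MGP rose as well. ATHB8, a factor gene of the procambium, was at 20.17, 20.9 and 20 FPKM in WT and 9.57, 10.6 and 9.68 in erf13-3 (adjusted p = 1.1e-06, log2 fold change -1.17, SE 0.08), and PHB, also a class III homeodomain gene, fell too (-0.86). SCR and ATHB8 had groups that did not overlap.

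Cell cycle genes counted 6 higher and 1 lower of 27, with a median of 0.24, and no member changed by 2-fold. The share called was 25.9%, no more than the 27.3% over all genes tested. CYCD3;3, a D-type cyclin gene, was at 9.2, 8.81 and 9.4 FPKM in WT and 16, 15.5 and 13.7 in erf13-3 (adjusted p = 0.00067, log2 fold change 0.58, SE 0.09). SIM, an inhibitor gene, was at 126, 123 and 125 FPKM in WT and 91.8, 97.7 and 106 in erf13-3 (adjusted p = 0.0014, log2 fold change -0.48, SE 0.09). The first rose and the second fell, with groups apart, and CYCB1;1, CDKB1;1 and CDKB2;1 were not called.

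Of 10 flavonoid genes 5 were lower and 1 higher, with a median of -0.73. CHS, the entry enzyme gene, was at 365, 311 and 358 FPKM in WT and 206, 218 and 213 in erf13-3 (adjusted p = 0.00019, log2 fold change -0.83, SE 0.11). CYP75B1, which hydroxylates flavonoids, was at 5.48, 4.43 and 5.03 FPKM in WT and 1.23, 0.67 and 1.02 in erf13-3 (adjusted p = 1.6e-05, log2 fold change -2.49, SE 0.24). All erf13-3 libraries were under all WT libraries in both. The rise of UGT78D1, a flavonol glycosyltransferase gene, was lost without WT replicate 1 or 2 or erf13-3 replicate 2. Lignin and xylem genes counted 10 lower and 4 higher of 26, with a median of -0.26, and 6 were lower without erf13-3 replicate 1 or 2. CAD5, an enzyme gene of monolignol synthesis, was at 134, 138 and 179 FPKM in WT and 63.9, 60.9 and 62.3 in erf13-3 (adjusted p = 7.7e-06, log2 fold change -1.41, SE 0.13). FAH1, which leads to syringyl lignin, was at 23.5, 22.8 and 35.1 FPKM in WT and 58.2, 62.9 and 75.5 in erf13-3 (adjusted p = 0.0015, log2 fold change 1.13, SE 0.21). CAD5 fell and FAH1 rose, without overlap, and the secondary wall cellulose synthase genes CESA4, CESA7 and CESA8 fell by 0.41, 0.37 and 0.39 on the log2 scale. The call of CESA7 was lost without WT replicate 2 or erf13-3 replicate 1 or 2 (adjusted p of 0.051 to 0.068).

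Of 11 hypoxia genes 5 were lower and 0 higher, with a median of -0.67, among them PDC2, a fermentation enzyme gene, at 18.9, 19.6 and 23.1 FPKM in WT and 8.79, 9.02 and 10.6 in erf13-3 (adjusted p = 4.2e-05, log2 fold change -1.26, SE 0.14). Its groups did not overlap. Of 14 circadian clock genes 3 were lower and 0 higher, with a median of -0.12. The share called was 21.4%, below the 27.3% over all genes tested. RVE1 was at 22, 25.3 and 15.8 FPKM in WT and 10.9, 9.85 and 8.26 in erf13-3 (adjusted p = 0.0001, log2 fold change -1.26, SE 0.16). LHY was at 28.2, 30.9 and 19.8 FPKM in WT and 20.13, 16.2 and 15.8 in erf13-3 (adjusted p = 0.0015, log2 fold change -0.74, SE 0.14), where WT replicate 3 lay within the range of the erf13-3 libraries. The call of CCA1 (-0.59) was lost without WT replicate 1 or 2, without erf13-3 replicate 3 and on FPKM without TMM scaling, at adjusted p-values of 0.050 to 0.10. The only one of 10 heat shock genes called was HSP70 (0.31, adjusted p = 0.042), and without WT replicate 1 or 2, erf13-3 replicate 1 or 3 or 35S:ERF13:MYC replicate 2 its adjusted p was 0.056 to 0.16. Without 35S:ERF13:MYC replicate 1 there were 2 such genes, and without WT replicate 1 there was 1 lower gene.

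Among the green tissue genes the median log2 fold change was 1.04. LHCB2.1, a light-harvesting protein gene, was at 14.6, 16.1 and 17.5 FPKM in WT and 59.9, 57.3 and 71.7 in erf13-3 (adjusted p = 5.7e-05, log2 fold change 1.81, SE 0.21). GAPB, of the Calvin cycle, was at 9.45, 11.2 and 10.2 FPKM in WT and 31.8, 32.5 and 33.5 in erf13-3 (adjusted p = 6.9e-05, log2 fold change 1.53, SE 0.18). RBCS1A, the main small subunit gene of Rubisco, was at 96.6, 109.8 and 101.1 FPKM in WT and 211, 205 and 239 in erf13-3 (adjusted p = 0.0024, log2 fold change 0.96, SE 0.19). The erf13-3 libraries exceeded the WT libraries in all of these. Of the 8 defining markers RBCS1A, RCA, LHCB1.3 and LHCB3 were called, RBCS2B, LHCB1.1 and CA1 were not, and GLK1 did not pass the filter. CA1, a carbonic anhydrase gene of leaves, stood at 0 to 0.19 FPKM in WT and 0.19 to 1.43 in erf13-3. The members include families of near-identical copies whose reads may be shared. In whole roots, more cells of a type and more RNA per cell cannot be told apart.

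**Figure D4:**
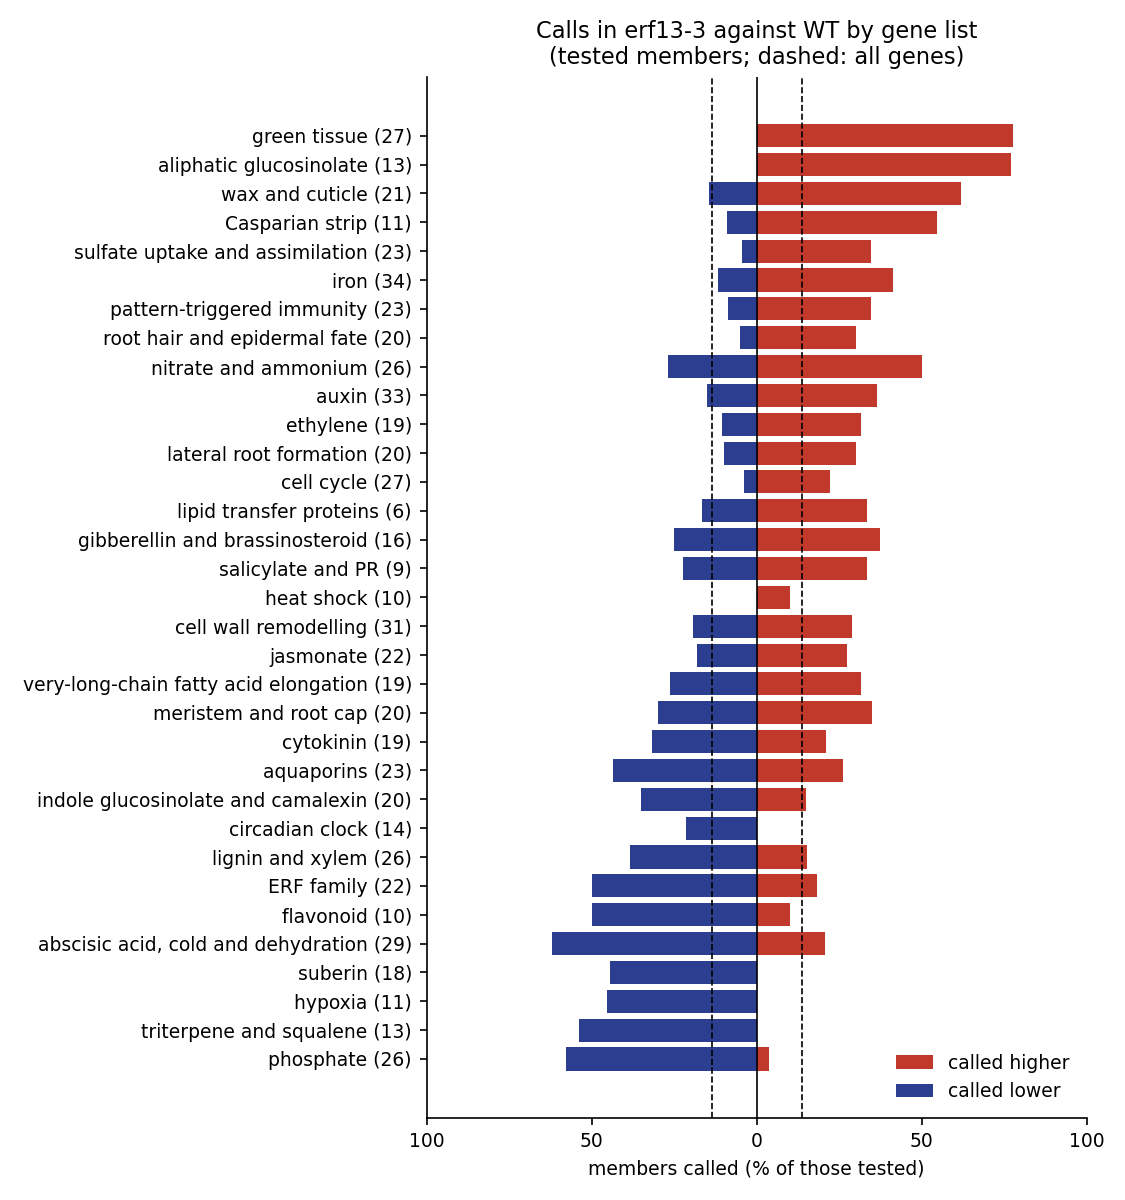
Share of the tested members of each gene list called higher (red, to the right) or lower (blue, to the left) in erf13-3 against WT, in percent, with the number tested in parentheses. Dashed lines mark the shares over all genes tested, 13.6% higher and 13.7% lower; green tissue (21 of 27) and aliphatic glucosinolate genes (10 of 13) have the longest red bars, and abscisic acid (18 of 29) and phosphate genes (15 of 26) the longest blue ones.

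The authors' deposited table for this comparison lists 1656 genes, 989 up and 667 down, with a smallest size of the log2 ratio of 1. Of these 1569 were tested here, 1499 were called in the same direction, 70 were not called and 0 were called in the opposite direction. Of the 1603 genes called here with at least a 2-fold change, 276 are not in that table. The authors' deposited table gives ERF13 a log2 ratio of 11.33.

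Against 35S:ERF13:MYC rather than WT, 7626 of the 19714 genes tested were called in erf13-3 (38.7%), 4156 higher (21.1%) and 3470 lower. Of the 27 green tissue genes 21 were higher than in 35S:ERF13:MYC and 0 lower. Of the 18 suberin genes 11 were higher and 4 lower, and of the 21 wax and cuticle genes 16 and 3. The 10 flavonoid genes had 0 higher and 6 lower in this comparison, and the 20 indole glucosinolate and camalexin genes 2 and 13. No difference from the shares over all genes was tested. In both lines more suberin genes were called lower than higher against WT, and both comparisons share the WT libraries. In 35S:ERF13:MYC against WT 13 of the 18 suberin genes were lower and 1 higher, and in erf13-3 8 were lower, 0 higher and 10 not called. Over all 19714 genes tested, 3496 were lower and 2713 higher in 35S:ERF13:MYC against WT, and 2692 and 2689 in erf13-3. The phosphate, the triterpene and squalene, and the hypoxia lists also had more members lower than higher in both lines.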

How the data were processed

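RNA-seq of 9 root libraries was analysed, of which the 3 of erf13-3 and the 3 of WT are compared. Per the labels' protocols, RNA was isolated with a column kit and cDNA was made with random primers. The authors deposited an expected count (an estimated count) and an FPKM value per gene and library, per the file headers. The authors deposited also a table of the comparison with a log2 ratio of mean FPKM and a score named Probability, which is no p-value and was not used. No source used here gives the aligner, counter, genome build or strand setting, so close paralogs and overlapping or antisense genes are uncertain. Genes not listed in a library were taken as 0, and 88.7% to 89.9% of the expected counts listed were whole within 0.005. All 1646 genes of the authors' table with coordinates overlapped their RefSeq entries in TAIR10.1, and 1171 had the same start and end there.

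Rounded expected counts went into edgeR 4.0.16 under R 4.3.3 (filterByExpr with a minimum count of 10, TMM, quasi-likelihood F test, all 9 libraries in a single fit with 6 residual degrees of freedom, Benjamini-Hochberg adjustment over all 19714 genes). All adjusted p-values are from this test. SE was derived from the F statistic as |log2 fold change| over its root. FPKM values are unscaled between libraries, while folds use TMM factors of 0.895 to 1.06. DESeq2 1.42.0 and limma 3.58.1 were alternatives. The members and gene lists were chosen with earlier results of these data known. Named genes were ERF13, KCS16, the 12 largest called rises and falls with a mean FPKM of at least 1 in the higher group, no overlap and a symbol, and up to 4 called members with the smallest p per list. Others are named for being called or not, or were picked after their values were seen. The 33 lists hold 734 genes, 716 of which had reads in at least 1 library.

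Deviations from the group means of WT and erf13-3 libraries with the same number correlated at 0.177, 0.221 and 0.445 over genes. That is the only ground for treating the numbers as pairs, since no label says so. It sets apart the third libraries only. Numbers 1 and 2 were not paired by it, since erf13-3 replicate 2 correlated at 0.267 with WT replicate 1. The correlation of erf13-3 replicate 1 with WT replicate 2 was 0.0538.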

Additional observations from a re-analysis of the deposited data

How the results depend on the processing

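The 145 genes named by the rule, ERF13 and KCS16 among them, kept their direction under every alternative run, and 3 of them, LTP2, HSP70 and CCA1, lost their call under some. Of 233 further called list members, 87 lost their call under at least 1 alternative, 81 of them without a single library, and 0 changed sign. Of those named in the text, ACC1, FAR5, PLT5 and PHR1 lost it only by limma on FPKM without TMM scaling and IRT1 only by DESeq2. Genes called higher numbered 2689, and 4646, 4733 and 4636 by limma on log2(FPKM + 0.1), log2(FPKM + 1) and unfiltered log2(FPKM + 0.1), none of them scaled by TMM. Leaving out single libraries gave 4066 to 5441 calls, the fewest without WT replicate 2. Without WT replicate 3 and erf13-3 replicate 3 together, an alternative added after seeing the data, there were 5604. DESeq2 called 5061 genes. With the replicate block 5494 genes were called, and 7200 with the block in the 6 libraries compared, and no gene named by the rule lost its call with a block, while ORA59 did with the block in all libraries. For erf13-3 against 35S:ERF13:MYC the numbers did not pair the libraries, with correlations of -0.0608, 0.149 and -0.128. No gene called in the main fit was called in the opposite direction under any alternative. With 3 libraries per group, single libraries decide small changes, and genes with few counts have wide intervals.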

Other observations

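Gene families grouped by words in their RefSeq product names numbered 27, a grouping made after results of these data were known, and 6 of them, chosen after their values were seen, are described here. Their counts stand beside the shares over all genes tested (13.6% higher and 13.7% lower), and no difference from those shares was tested. Of 150 leucine-rich repeat kinase genes 53 were higher in erf13-3 and 22 lower, and the alternatives gave 42 to 67 higher and 11 to 27 lower. Of 66 NAC factor genes 6 were higher and 21 lower, with 3 to 10 and 18 to 25 under the alternatives. Of 48 photosystem or light-harvesting genes 31 were higher and 1 lower, and their summed level was 1303 to 1490 FPKM in WT, 2397 to 2913 in erf13-3 and 676 to 877 in 35S:ERF13:MYC.

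Of 314 ribosomal protein genes 73 were higher and 6 lower, 1 in each direction by at least 2-fold, with a median log2 fold change of 0.20. The count of higher genes was 32 without WT replicate 2, 148 without WT replicate 1 and up to 179 on FPKM without TMM scaling. Their summed level was 37520, 31350 and 28140 FPKM in the WT libraries and 41340, 40240 and 38520 in the erf13-3 libraries. The extensin genes, of cell wall glycoproteins, had 13 higher and 8 lower of 39, and their summed level was 12070 to 14700 FPKM in WT and 6175 to 8316 in erf13-3. Of 34 proteasome genes 0 were higher and 1 lower, and the alternatives gave 0 to 3 higher and 0 to 2 lower.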
